A study of Mus musculus with 16 samples.

Results

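The CC chemokines described here were Ccl2, Ccl3, Ccl4, Ccl5, Ccl6, Ccl7, Ccl9, Ccl12, Ccl22 and Ccl24, chosen by gene symbol among the annotated probe sets of mouse liver arrays. All 10 had a probe set, 1 each, and 9 passed the filter on dim probe sets that left 15908 genes for testing. Ccl12 did not pass it, and Ccl22 passed it only through its LPS-treated arrays and 1 untreated WT array. The study measured RNA of whole male mouse livers on 16 arrays, with 4 arrays in each of 4 groups. The groups were S534A given 1 mg/kg LPS, WT given 1 mg/kg LPS, S534A untreated and WT untreated. S534A mice carried a homozygous knock-in that replaces a serine of p65, the product of Rela, with alanine in every cell of the body. Their line came from 2 embryonic stem cell clones, lost its selection cassette through FLPe, was backcrossed 5 times to C57Bl6/J and then interbred. WT mice were C57Bl6/J.

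The labels do not say which clone gave these mice, the age of the mice, or the route and time of LPS. No group received vehicle, so LPS-treated livers were set against untreated ones. The series text mentions the LPS dose for the untreated S534A group as well, and the sample titles, which call it untreated, were followed. Nothing in the labels says that the samples of a group were separate animals, so p-values measure only how far these samples differed, and that spread may be technical.

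CC chemokines are small secreted proteins, named for a pair of adjacent cysteines, that guide leukocytes along gradients through G protein-coupled receptors of the Ccr family. In liver they are made by resident macrophages (Kupffer cells), endothelium, hepatocytes and infiltrating leukocytes, and they draw monocytes, T cells and eosinophils into the tissue. LPS, the lipopolysaccharide of Gram-negative bacteria, engages Tlr4 and activates NF-kB, whose p65 subunit carries the serine changed in the knock-in. The comparisons ask how LPS changed the chemokines in each genotype and whether the genotypes differed with or without LPS.

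Values are log2 intensities made by RMA, a background correction, normalization and summary of probes, and a difference of 1 is a doubling of signal. The 30th percentile of an array, 5.38 to 5.44 in LPS-treated S534A, 5.35 to 5.42 in LPS-treated WT, 5.30 to 5.35 in untreated S534A and 5.25 to 5.33 in untreated WT arrays, served as the line below which a probe set was called dim. Array medians ran from 6.25 to 6.42, and the first principal component, with 78.5% of the variance, separated all LPS-treated from all untreated arrays. Rela, the targeted gene, stood at 11.37 to 11.43 in LPS-treated S534A, 11.31 to 11.47 in LPS-treated WT, 9.88 to 10.13 in untreated S534A and 10.03 to 10.34 in untreated WT arrays. It rose with LPS by 1.41 ± 0.08 in S534A and by 1.22 ± 0.08 in WT. A point mutation leaves the transcript in place, so these values do not check the genotype labels. Hepatocyte markers, a check of the labelled tissue, averaged between 13.4 and 13.6 in every group.

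Promoters of 5 of the 10 members were found among the RefSeq windows of GRCm38.p6 (250 bases before to 50 after the gene start), those of Ccl3, Ccl6, Ccl9, Ccl12 and Ccl22. The windows of 4 are printed because their genes gave 3 different responses to LPS: higher (Ccl3, Ccl22), lower (Ccl6) and no call (Ccl9). Ccl6 and Ccl9 come first, at chr11:83593038-83593337 and chr11:83578587-83578886, both on the minus strand. Capitals mark runs of at least 10 identical bases within their best local alignment, described below. Runs shared outside that pairing are not marked.
Ccl6: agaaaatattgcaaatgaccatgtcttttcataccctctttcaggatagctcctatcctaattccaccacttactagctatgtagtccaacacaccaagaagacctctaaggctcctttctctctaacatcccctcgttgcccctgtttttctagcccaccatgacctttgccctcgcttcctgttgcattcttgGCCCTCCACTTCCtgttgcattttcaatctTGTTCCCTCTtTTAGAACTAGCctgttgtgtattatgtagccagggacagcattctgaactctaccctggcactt
Ccl9: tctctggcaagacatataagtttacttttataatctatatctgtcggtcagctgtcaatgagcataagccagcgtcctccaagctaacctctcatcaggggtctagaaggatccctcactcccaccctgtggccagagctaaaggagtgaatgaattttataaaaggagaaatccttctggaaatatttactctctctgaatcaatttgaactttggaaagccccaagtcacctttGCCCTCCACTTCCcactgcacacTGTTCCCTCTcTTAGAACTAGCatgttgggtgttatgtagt
The neighbouring genes Ccl6 and Ccl9 resembled each other around their starts. A local alignment (match 1, mismatch -1, gap opening -2, gap extension -1) paired positions -59 to 15 of Ccl6 with -18 to 49 of Ccl9, with 59 identical bases in 74 aligned columns (79.7%) and a score of 41. The other 9 pairs of these 5 windows scored 10 to 14. The alignment shared 3 runs of at least 10 bases, the longest of 13.

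Ccl3 lies at chr11:83649329-83649628 on the minus strand and Ccl22 at chr8:94745434-94745733 on the plus strand, and capitals mark matches on either strand to a wide NF-kB pattern (GGG, any 5 bases, CC).
Ccl3: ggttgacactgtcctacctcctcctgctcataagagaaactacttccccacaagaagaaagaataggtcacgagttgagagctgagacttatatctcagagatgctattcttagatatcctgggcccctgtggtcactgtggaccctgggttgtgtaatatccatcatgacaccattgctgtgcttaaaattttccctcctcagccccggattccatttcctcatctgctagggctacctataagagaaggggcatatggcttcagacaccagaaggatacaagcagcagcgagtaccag
Ccl22: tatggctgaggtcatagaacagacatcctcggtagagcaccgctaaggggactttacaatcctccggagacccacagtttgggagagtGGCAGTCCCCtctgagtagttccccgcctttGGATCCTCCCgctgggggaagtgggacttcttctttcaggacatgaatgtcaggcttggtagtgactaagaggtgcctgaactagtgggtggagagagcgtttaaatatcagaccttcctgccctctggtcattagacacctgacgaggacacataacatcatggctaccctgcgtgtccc
The Ccl22 window held 2 matches, at positions -162 to -153 and -131 to -122 from the start, and the Ccl9 window 1, at -35 to -26. This pattern is loose: 50.8% of 32851 RefSeq windows of the same length held it. A narrower NF-kB pattern (GGGA, any base, TT, any base, CC), every match of which also matches the wide one, was in 1.2% of windows and in none of the 5. The pattern of interferon response elements (GAAA, any 2 bases, GAAA) was in 3.44% of windows and likewise in none of the 5. TGANTCA, an AP-1 pattern, was in 7.81% of windows and had 1 match among the 5, at -53 to -47 of Ccl9. Ccl3, the member with the highest rise after LPS, held none of the 4 patterns in its 300 bases, as did Ccl6 and Ccl12, which says only that these letters are not in these windows.

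In both genotypes 6 of the 10 members rose with LPS (Ccl2, Ccl3, Ccl4, Ccl5, Ccl7 and Ccl22), 2 fell (Ccl6 and Ccl24), Ccl9 did not pass the test and Ccl12 was not tested. Ccl22 is counted with the rises although its untreated signal was dim and the treated arrays alone brought it into the test. The test was limma over all genes with Benjamini-Hochberg adjustment and a threshold of 0.05. Among all genes tested 14.2% were called higher and 31.2% lower in S534A livers, and 14.9% higher and 29.9% lower in WT livers. Groups did not overlap for the 6 rises and for Ccl6 in either genotype; over all genes 16.4% were higher and 31.7% lower without overlap in S534A, and 12.7% higher and 25.6% lower without overlap in WT. With no filter on dim probe sets, so that all 10 members counted, the median LPS change of the members was 0.96 in S534A and 0.97 in WT on the log2 scale, beside -0.01 and -0.02 for all genes. In bulk tissue, a change in the number of cells of a type and a change in RNA per cell cannot be told apart.

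**Figure D1:**
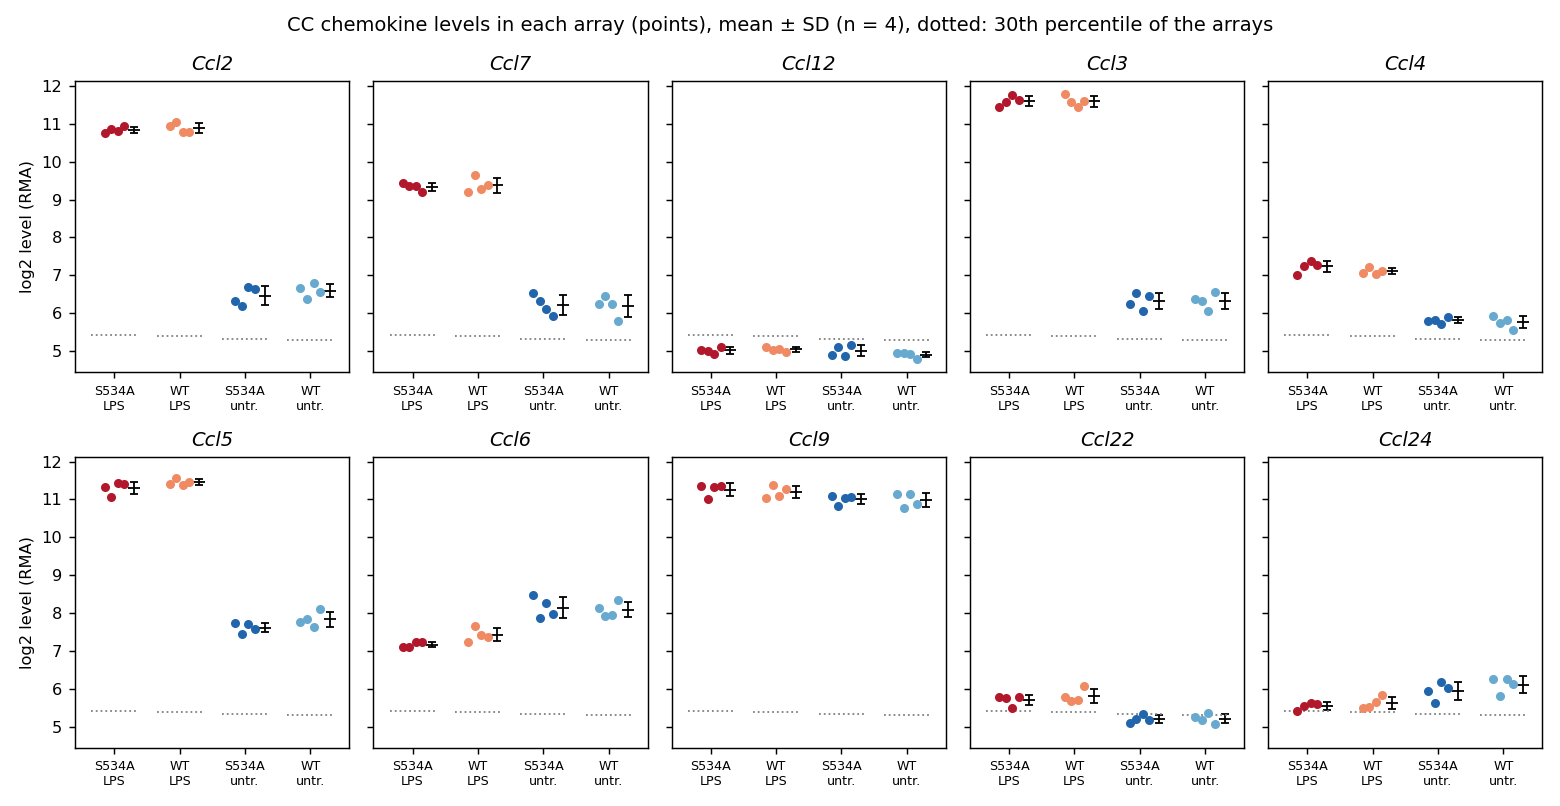
Log2 level of each of the 10 CC chemokines on each array, with groups left to right as LPS-treated S534A, LPS-treated WT, untreated S534A and untreated WT. Points are arrays, bars give the group mean and SD (n = 4), and dotted lines mark the 30th percentile of the arrays. Ccl3 sits between 11.43 and 11.78 on the 8 LPS-treated arrays and between 6.05 and 6.55 on the 8 untreated ones, while Ccl12 stays between 4.80 and 5.16 throughout.

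Ccl2 (monocyte chemoattractant protein 1), a main ligand of Ccr2 that brings monocytes out of bone marrow and into tissue, stood at 10.76, 10.86, 10.81 and 10.95 in LPS-treated S534A and at 10.94, 11.05, 10.77 and 10.79 in LPS-treated WT arrays. Untreated arrays gave 6.32, 6.18, 6.70 and 6.63 in S534A and 6.66, 6.38, 6.79 and 6.55 in WT. Every LPS-treated array lay far above every untreated array, and the 2 genotypes overlapped within each treatment. The change was 4.39 ± 0.11 in S534A (SE, 20.9-fold, limma adjusted p = 1.24e-14) and 4.29 ± 0.11 in WT (19.6-fold, limma adjusted p = 1.31e-14).

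Ccl7, a second monocyte chemoattractant that shares Ccr2 with Ccl2, had levels of 9.44, 9.36, 9.35 and 9.19 in LPS-treated S534A and 9.21, 9.66, 9.27 and 9.37 in LPS-treated WT arrays. Its untreated levels were 6.53, 6.32, 6.11 and 5.92 in S534A and 6.25, 6.46, 6.24 and 5.79 in WT. Again the treatments were well apart and the genotypes mixed. Ccl7 rose by 3.12 ± 0.14 in S534A (8.67-fold, limma adjusted p = 2.22e-11) and by 3.19 ± 0.14 in WT (9.14-fold, limma adjusted p = 1.6e-11).

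Ccl12, the third Ccr2 ligand of the set and known in mouse as monocyte chemoattractant protein 5, was dim on all 16 arrays. It lay at 4.91 to 5.12 in LPS-treated S534A, 4.97 to 5.10 in LPS-treated WT, 4.88 to 5.16 in untreated S534A and 4.80 to 4.96 in untreated WT arrays. With no filter its LPS change was 0.01 ± 0.07 in S534A (limma adjusted p = 0.963) and 0.13 ± 0.07 in WT (limma adjusted p = 0.174). The WT treatments did not overlap, and the exact two-sided permutation test gave p = 0.0286 there, the smallest that 4 against 4 arrays allow (0.0715 after Benjamini-Hochberg adjustment over 40 such tests). Ccl12 was thus the one Ccr2 ligand of the 3 whose signal stayed under the line with or without LPS.

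Ccl3 (macrophage inflammatory protein 1 alpha), a ligand of Ccr1 made by activated macrophages and neutrophils, stood at 11.43, 11.58, 11.76 and 11.63 in LPS-treated S534A and at 11.78, 11.58, 11.43 and 11.60 in LPS-treated WT arrays. Without LPS it was at 6.23, 6.53, 6.06 and 6.46 in S534A and at 6.37, 6.31, 6.05 and 6.55 in WT. No LPS-treated array came near an untreated one, and the genotypes interleaved. The change was 5.28 ± 0.12 in S534A (38.9-fold, limma adjusted p = 2.52e-15) and 5.28 ± 0.12 in WT (38.8-fold, limma adjusted p = 2.19e-15), the highest fold of the set in both.

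Ccl4 (macrophage inflammatory protein 1 beta), a chemoattractant of monocytes and T cells whose gene lies next to Ccl3, rose far less. Its levels were 7.01, 7.25, 7.38 and 7.28 in LPS-treated S534A and 7.07, 7.21, 7.03 and 7.11 in LPS-treated WT arrays, against 5.78, 5.82, 5.72 and 5.91 in untreated S534A and 5.92, 5.75, 5.83 and 5.55 in untreated WT arrays. The treatments did not overlap, although the rise was 1.42 ± 0.09 in S534A (2.68-fold, limma adjusted p = 1.22e-09) and 1.34 ± 0.09 in WT (2.54-fold, limma adjusted p = 2.5e-09). Whether the 2 probe sets respond alike to equal changes of RNA was not tested.

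Ccl5 (RANTES), which attracts T cells, NK cells and monocytes through Ccr1 and Ccr3 among others, was at 11.32, 11.06, 11.43 and 11.40 in LPS-treated S534A and at 11.41, 11.56, 11.39 and 11.46 in LPS-treated WT arrays. Untreated arrays read 7.74, 7.46, 7.71 and 7.57 in S534A and 7.76, 7.85, 7.64 and 8.10 in WT. All 8 treated arrays exceeded all 8 untreated ones. Ccl5 rose by 3.69 ± 0.10 in S534A (12.9-fold, limma adjusted p = 2.57e-14) and by 3.62 ± 0.10 in WT (12.3-fold, limma adjusted p = 2.98e-14).

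Ccl6 and Ccl9 are Ccr1 ligands of rodents that myeloid cells make without stimulation. Ccl6 ran against the inflammatory members, with 7.10, 7.11, 7.23 and 7.24 in LPS-treated S534A and 7.25, 7.67, 7.43 and 7.37 in LPS-treated WT arrays, against 8.47, 7.87, 8.25 and 7.98 in untreated S534A and 8.14, 7.92, 7.95 and 8.36 in untreated WT arrays. Every treated array was below every untreated one. Ccl6 fell by 0.97 ± 0.13 in S534A (1.96-fold lower, limma adjusted p = 8.22e-06) and by 0.67 ± 0.13 in WT (1.59-fold lower, limma adjusted p = 0.000375).

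Ccl9 was bright in every liver. It stood at 11.35, 11.01, 11.33 and 11.35 in LPS-treated S534A and at 11.03, 11.38, 11.09 and 11.28 in LPS-treated WT arrays, against 11.10, 10.83, 11.05 and 11.06 in untreated S534A and 11.15, 10.77, 11.14 and 10.87 in untreated WT arrays. Treatments overlapped in both genotypes. The difference was 0.25 ± 0.11 in S534A (95% interval 0.02 to 0.49, limma adjusted p = 0.0739) and 0.21 ± 0.11 in WT (-0.02 to 0.45, limma adjusted p = 0.135). Without array 2 of LPS-treated S534A, which lay below the other 3, the S534A difference was 0.33 and passed the test (limma adjusted p = 0.022). In WT it was 0.38 (limma adjusted p = 0.0254) without 3 untreated arrays (WT 1 and WT 3, S534A 3), whose circadian clock genes stood apart in earlier results of these data. Other settings lowered it, in S534A to 0.16 after median centring of the arrays and in WT to 0.09 with array quality weights and to 0.14 without untreated WT array 2, with no call.

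Ccl22, a Ccr4 ligand of dendritic cells and macrophages that attracts regulatory and type 2 helper T cells, was at 5.79, 5.75, 5.49 and 5.79 in LPS-treated S534A and 5.79, 5.67, 5.71 and 6.09 in LPS-treated WT arrays. Untreated levels were 5.09, 5.20, 5.33 and 5.18 in S534A and 5.26, 5.17, 5.37 and 5.08 in WT. It was above the dim line on all 8 treated arrays and on 1 of 8 untreated ones, so only the treated livers brought it into the test. LPS minus untreated was 0.51 ± 0.10 in S534A (limma adjusted p = 0.000449) and 0.60 ± 0.10 in WT (limma adjusted p = 9.77e-05), with no overlap of treatments. Since the untreated values lie mostly under the line, these differences of signal are not given as folds, and the p-values do not stand apart from the way the gene entered the test.

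Ccl24 (eotaxin 2), which draws eosinophils through Ccr3, was lower after LPS. Its levels were 5.41, 5.54, 5.64 and 5.59 in LPS-treated S534A and 5.49, 5.53, 5.66 and 5.84 in LPS-treated WT arrays, against 5.94, 5.64, 6.19 and 6.02 in untreated S534A and 6.27, 5.81, 6.25 and 6.12 in untreated WT arrays. Array 2 of each untreated group dipped into the range of the treated arrays, so the treatments overlapped. Treated arrays lay close above the dim line, the lowest at 5.41 against 5.38 in S534A and 5.49 against 5.42 in WT. The folds are therefore of signal near that line. The fall was 0.40 ± 0.12 in S534A (1.32-fold lower, limma adjusted p = 0.0122) and 0.48 ± 0.12 in WT (1.40-fold lower, limma adjusted p = 0.00338). Neither passed the exact two-sided permutation test (p = 0.0571 each), and without the 3 untreated arrays with the clock genes apart the WT change was -0.34 and missed the threshold (limma adjusted p = 0.0519).

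**Figure D2:**
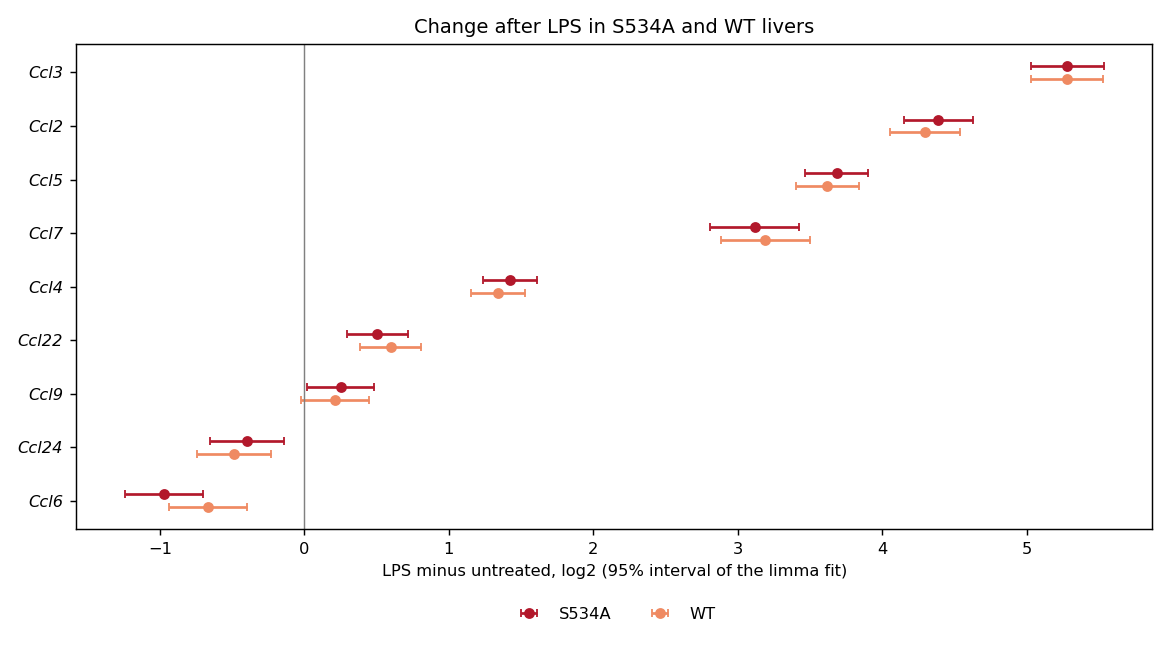
Log2 change with LPS in S534A and in WT livers for the 9 tested members, with 95% confidence intervals from limma. Ccl3, Ccl2, Ccl5 and Ccl7 changed by 3.12 to 5.28, Ccl4 by 1.34 to 1.42 and Ccl22 by 0.51 to 0.60, while the intervals of Ccl6 and Ccl24 lie below 0.

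By size of change the order was the same in both genotypes from Ccl3 through Ccl2, Ccl5, Ccl7, Ccl4, Ccl22, Ccl9 and Ccl24 to Ccl6. This is an order of changes and not of levels, since signals of different probe sets cannot be set against each other. The 95% intervals of neighbours in this order overlapped for Ccl22 and Ccl9 in both genotypes, and in WT also for Ccl5 and Ccl7 and for Ccl24 and Ccl6. The other neighbours were apart.

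No member passed the test between the genotypes. After LPS 0 of the 9 tested members passed the adjusted threshold between S534A and WT (0% of all genes; limma adjusted p = 1.00 for each), and without LPS again 0 did (0.0126% of all genes, with limma adjusted p of 0.570 or more). The LPS effect differed between S534A and WT for 0 members (0% of all genes; limma adjusted p of 0.951 or more for the interaction). At an unadjusted p under 0.05, limma called 0 members in each of these 3 comparisons (1, Ccl5 without LPS, when dim probe sets were kept), beside 3% of all genes after LPS, 8.88% without LPS and 4.82% for the interaction. The comparisons share groups, so they are not independent of each other.

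The intervals show what size of difference these arrays leave possible. After LPS, S534A minus WT was -0.04 for Ccl2 (95% interval -0.28 to 0.20), 0.00 for Ccl3 (-0.25 to 0.25), 0.13 for Ccl4 (-0.06 to 0.32), -0.15 for Ccl5 (-0.37 to 0.07) and -0.04 for Ccl7 (-0.34 to 0.27). For Ccl9 it was 0.07 (-0.17 to 0.30), for Ccl22 -0.11 (-0.32 to 0.10) and for Ccl24 -0.08 (-0.34 to 0.17). Across all 9 members the interval ends lay between 0.693 and 1.24 times WT after LPS and between 0.74 and 1.27 times WT without LPS. Rises of 8.67-fold to 38.9-fold in Ccl2, Ccl3, Ccl5 and Ccl7 were therefore large beside any genotype difference the intervals allow.

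Ccl6 came nearest to a genotype difference after LPS. Its 4 S534A arrays (7.10 to 7.24) lay below its 4 WT arrays (7.25 to 7.67), the highest S534A and lowest WT values being 7.24 and 7.25. Among all genes 1.29% were lower in S534A after LPS without overlap. The difference was -0.26 ± 0.13 (95% interval -0.53 to 0.01, unadjusted limma p = 0.0586), the exact two-sided permutation test gave its smallest possible p of 0.0286 (0.0715 adjusted over the 40 tests), and limma's adjusted p was 1.00. Without LPS the Ccl6 difference was 0.05 (-0.22 to 0.32). The interaction was -0.31 ± 0.18 (-0.69 to 0.07, limma adjusted p = 0.951), so the deeper fall in S534A than in WT was not separated from the spread between arrays. These values were not steady: array quality weights gave -0.16 after LPS and -0.17 for the interaction, leaving out array 2 of LPS-treated WT gave -0.18 after LPS, and leaving out untreated S534A array 1 gave -0.20 for the interaction.

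Without LPS the member with the lowest p was Ccl5, at 7.46 to 7.74 in S534A against 7.64 to 8.10 in WT arrays. The groups overlapped, and the difference was -0.22 (95% interval -0.43 to 0.00, limma adjusted p = 0.570; exact two-sided permutation p = 0.114, adjusted 0.228 over the 40 tests). It was -0.13 without untreated WT array 4 and -0.39 without the 3 untreated arrays with the clock genes apart. With no filter limma's unadjusted p was 0.0489 (adjusted p = 0.613), beside the exact permutation p above. Rela itself differed by 0.00 ± 0.08 after LPS and by -0.19 ± 0.08 without it (limma adjusted p = 0.486).

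**Figure D3:**
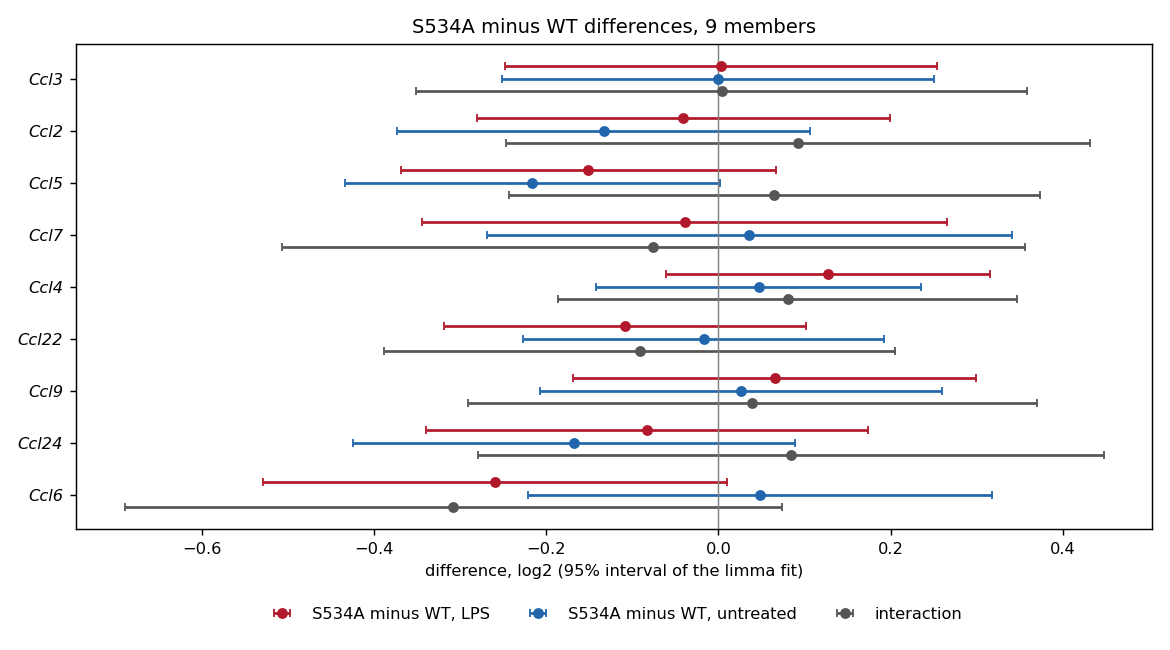
S534A minus WT log2 difference of the 9 tested members after LPS and without LPS, and the interaction, each with its 95% confidence interval from limma. Every interval includes 0, and the differences run from -0.26 (Ccl6) to 0.13 (Ccl4) after LPS.

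Chromosomal order set the responses beside each other. In the RefSeq order of protein-coding genes of GRCm38.p6, chromosome 11 holds a run of 6 chemokine genes, Ccl2, Ccl7, Ccl11, Ccl12, Ccl8 and Ccl1, and a run of 5, Ccl5, Ccl9, Ccl6, Ccl3 and Ccl4. In the first run Ccl2 and Ccl7 at one end rose, while Ccl11 changed by 0.19 ± 0.10 in S534A and 0.18 ± 0.10 in WT and was not called. Ccl12 and Ccl8 were dim on every array, and Ccl1 changed by 0.04 in S534A and 0.05 in WT without a call. The run of 5 mixed directions: Ccl5, Ccl3 and Ccl4 rose, and between them Ccl9 was not called and Ccl6 fell.

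Ccl22 and Ccl17, both ligands of Ccr4, flank Cx3cl1 on chromosome 8. Both rose, Ccl17 by 0.35 ± 0.09 in S534A and 0.44 ± 0.09 in WT, while Cx3cl1, a membrane-anchored chemokine of another class between them, changed by 0.00 in S534A and 0.04 in WT and was not called. Ccl24 on chromosome 5 follows Ccl26, which was dim on all arrays.

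**Figure D4:**
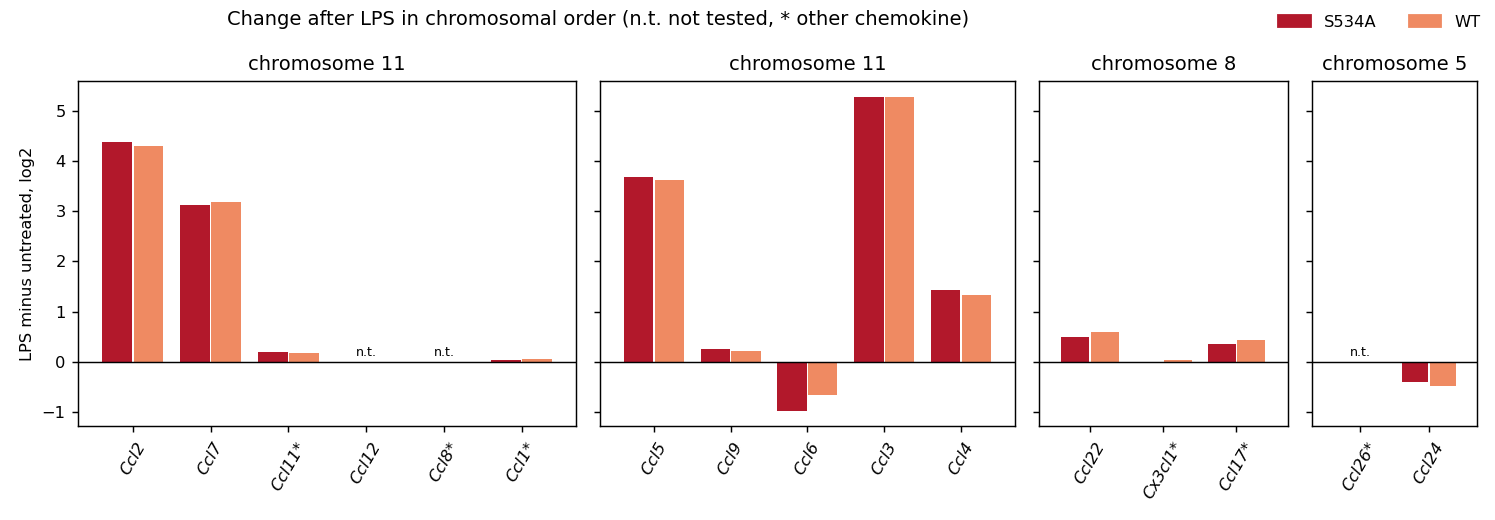
Log2 change with LPS in S534A and WT livers for chemokine genes in RefSeq gene order along chromosomes 11, 8 and 5. In the run from Ccl5 to Ccl4, 3 genes rose, Ccl6 fell and Ccl9 was not called; n.t. marks genes that did not pass the filter, and an asterisk marks chemokines other than the 10.

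Of 14 other CC chemokines listed, 7 were tested. In each genotype 2 rose and 0 fell, with a median change of 0.15 in S534A and 0.05 in WT beside -0.03 and -0.05 for all genes. Of all genes tested 14.2% were called higher and 31.2% lower in S534A, and 14.9% higher and 29.9% lower in WT. Ccl19, a Ccr7 ligand that guides dendritic cells and T cells in lymphoid tissue, rose by 1.60 ± 0.14 in S534A and 1.56 ± 0.14 in WT, and the other was Ccl17. Ccl1, Ccl11, Ccl20, Ccl25 and Ccl28 were not called in either genotype.

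Ccr1, Ccr2, Ccr3 and Ccr4, receptors of these ligands, did not pass the filter in whole liver. Of 15 listed CC receptors 8 were tested, and 2 rose and 2 fell in each genotype, beside the shares over all genes (14.2% higher and 31.2% lower in S534A, 14.9% higher and 29.9% lower in WT). With no filter 14 were measured, of which 3 were called higher and 1 lower in S534A, and 4 higher and 2 lower in WT. Over all 19938 genes this setting called 2318 higher and 4999 lower in S534A, and 2413 higher and 4778 lower in WT. Ccrl2, an atypical receptor that binds chemerin and does not signal for migration, rose by 5.26 ± 0.13 in S534A (38.4-fold) and 5.21 ± 0.13 in WT (37.1-fold). Ackr1, the Duffy antigen receptor that binds Ccl2, Ccl5 and Ccl7 among others on venular endothelium, rose by 1.45 ± 0.15 in S534A and 1.83 ± 0.15 in WT. Its difference between S534A and WT after LPS was -0.39 ± 0.15 (limma adjusted p = 1.00).

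The 2 receptors called lower were Ackr2 and Ackr4. Ackr2, which takes up and degrades inflammatory CC chemokines, fell by 0.35 ± 0.14 in S534A (limma adjusted p = 0.0465) and by 0.45 ± 0.14 in WT (limma adjusted p = 0.0114). Its S534A call was lost with no filter (limma adjusted p = 0.0569). Ackr4, a scavenger of Ccl19, Ccl21 and Ccl25, fell by 0.42 ± 0.09 in S534A and by 0.41 ± 0.09 in WT.

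Ccr2, the receptor of Ccl2, Ccl7 and Ccl12, lay between 4.51 and 4.82 on all 16 arrays, below the line and not called with no filter. Ccr1, the receptor shared by Ccl3, Ccl5, Ccl6 and Ccl9, was named after its values were seen. It lay at 5.09 to 5.36 in LPS-treated S534A arrays and at 5.32, 6.27, 5.18 and 5.09 in LPS-treated WT arrays, against 4.67 to 4.77 in untreated S534A and 4.54 to 4.72 in untreated WT arrays. It was above the line on 1 array only, array 2 of LPS-treated WT, and so was not in the main test. All 8 treated arrays read above all 8 untreated ones. With no filter Ccr1 was among the receptors called higher (limma adjusted p = 0.0231 in S534A and 0.00114 in WT). Both are given as a description only, since the signal was dim and the gene was picked for it.

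**Figure D5:**
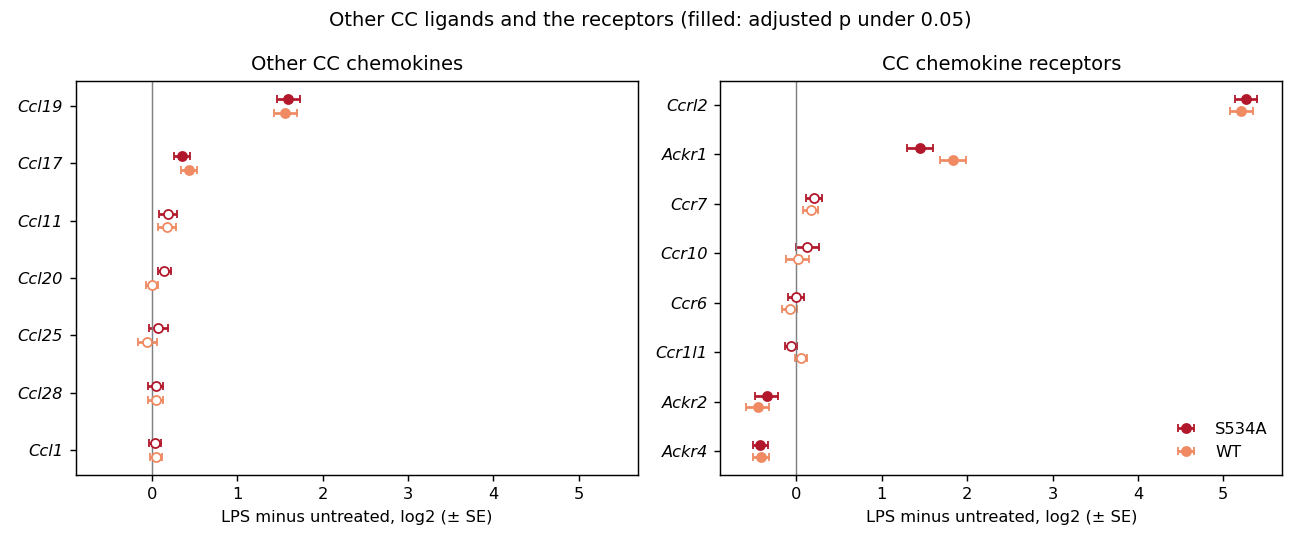
Log2 change with LPS in S534A and WT livers for the 7 other CC chemokines and 8 CC receptors tested, with the SE of the limma fit as bars and filled points for an adjusted p under 0.05. Ccrl2 changed by 5.26 in S534A and 5.21 in WT, beside 5.28 for Ccl3 in each genotype, while Ackr2 and Ackr4 lie below 0.

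Markers of the cells that make or follow these chemokines moved with LPS as well. Each count of markers stands beside the shares over all genes tested. These were 14.2% higher and 31.2% lower in S534A, and 14.9% higher and 29.9% lower in WT. Neutrophil markers rose in 11 of 12 cases in each genotype, and the list's mean level was 7.19 to 7.54 in LPS-treated S534A and 7.10 to 7.70 in LPS-treated WT, against 5.74 to 5.84 in untreated S534A and 5.71 to 5.79 in untreated WT arrays. Of these rises, Ly6g averaged 4.86 in untreated S534A and 4.84 in untreated WT, under the line, and Mmp8 likewise averaged under it in both. Retnlg and Cxcr2 averaged 5.28 and 5.31 in untreated WT, within the lines of those arrays (5.25 to 5.33). In untreated S534A they averaged 5.39 and 5.52, above the lines there (5.30 to 5.35). A gene dim on untreated arrays enters the test through treated ones, as Ccl22 did. Such rises do not stand apart from the filter. Of 11 monocyte markers 7 were tested, of which 4 rose and 1 fell, with mean levels of 8.60 to 8.75 in LPS-treated S534A and 8.72 to 8.96 in LPS-treated WT, against 7.997 to 8.242 in untreated S534A and 7.87 to 8.33 in untreated WT. Vcan, one of the rises, averaged 5.22 in untreated S534A and 5.24 in untreated WT, under the line, so the same limit holds for it. Fn1, another rise, averaged 13.08 in untreated S534A and 13.02 in untreated WT, and changed by only 0.17 and 0.25. Lyz2, the marker that fell, changed by -0.76 in S534A and -0.87 in WT. Ccr2 and Chil3 of this list were too dim to be tested. With no filter Ccr2 changed by 0.02 in S534A and 0.03 in WT, and Chil3 by 0.28 and 0.21, without a call. Kupffer cell markers fell in 11 of 13 cases and 1 rose, with mean levels of 7.78 to 8.08 in LPS-treated S534A and 7.99 to 8.36 in LPS-treated WT, against 8.86 to 9.33 in untreated S534A and 9.12 to 9.58 in untreated WT.

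Sinusoidal endothelial markers fell in 9 of 11 cases and rose in 2 in each genotype, with mean levels of 8.20 to 8.51 in LPS-treated S534A and 8.30 to 8.73 in LPS-treated WT, against 9.61 to 9.79 in untreated S534A and 9.61 to 9.78 in untreated WT. Of 12 stellate cell and fibroblast markers 7 fell in each genotype and 1 rose in S534A, with mean levels of 7.76 to 7.97 in LPS-treated S534A and 7.76 to 7.96 in LPS-treated WT, against 8.31 to 8.51 in untreated S534A and 8.34 to 8.41 in untreated WT. The tested neutrophil and monocyte markers thus read higher on average after LPS, as did the 6 chemokines that rose. Some of those markers were dim without LPS. The Kupffer, endothelial and stellate lists read lower, as did Ccl6 and Ccl24. The part of these cells in the chemokine changes was not tested.

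Dendritic cell markers and those of eosinophils and mast cells did not exceed the share of all genes called lower (31.2% in S534A, 29.9% in WT). Of 9 dendritic cell markers 2 fell and 0 rose in each genotype, Clec9a and Zbtb46 in S534A and Cd209a and Flt3 in WT. Of 4 tested markers of eosinophils and mast cells 1, Kit, fell in each genotype, and of 7 tested T and NK cell markers 1 rose in each and 1 fell in WT. No marker of any list was called between the genotypes.

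The genes most like each member were found by the root mean square difference of log2 values over the 16 arrays, each gene centred on its mean, among 14778 genes. Nearest to Ccl2 were Cxcl9 (0.16) and Calhm6 (0.17), where the median gene differed by 2.20. For Ccl3 they were Cxcl10 (0.20) and Slfn4 (0.20) against a median of 2.67, for Ccl5 Oasl2 (0.16) and Phf11d (0.17) against 1.86, and for Ccl7 Cpne8 (0.21) and Znfx1 (0.23) against 1.62. These profiles are governed by the gap between treated and untreated arrays, so a gene with a change of like size comes out as near.

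Closest to Ccl4 were Tdrd7 (0.12) and Slc2a6 (0.13) against a median of 0.74, and to Ccl6 Epb41l5 (0.12) and Trappc1 (0.13) against 0.46. Ccl22 had Smox (0.09) and Cdh3 (0.09) against 0.37, and Ccl24 had Lypla2 (0.11) and Sumo3 (0.12) against 0.31. Ccl9 had Heatr9 (0.10) and Col12a1 (0.11) against 0.27. Heatr9 is also the protein-coding gene before Ccl5 in RefSeq order, at the head of the run that holds Ccl9, and it changed by 0.32 in S534A (limma adjusted p = 0.00331) and 0.28 in WT (limma adjusted p = 0.00855).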

How the data were processed

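The deposited values are log2 array intensities, one per probe set, and RMA is named for them per the submitters' processing notes. The RMA software and summary level were not found in the labels. Scanner files were not used here, signal over background is not known, and precision is limited by the number of arrays. Of 35556 probe sets, 21789 had 1 gene symbol, 1621 several and 12146 none. Symbols were matched by gene ID to RefSeq genes of GRCm38.p6 (21698 matched, 0 changed).

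A probe set was tested when it exceeded its array's 30th percentile on at least 4 of 16 arrays, and a gene was represented by its probe set of highest mean. Genes were fitted with limma 3.58.1 in R 4.3.3 (4 group means over all arrays, no covariate, eBayes, 12 residual degrees of freedom, two-sided), with Benjamini-Hochberg adjustment over 15908 genes. The fit was tested on simulated data. Exact permutation tests took the members 1 at a time. Promoters were searched in Python 3.11.15, aligned with Biopython 1.88, and figures drawn with matplotlib 3.10.9.

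Members, gene lists, tests and the naming rule were chosen with earlier results of these data known. The rule named all members, Rela, up to 4 genes of lowest p per other list and the 2 most similar genes per member. Genes named outside it were chosen after their values were seen: Ccr1, Ccr2, Ccr3, Ccr4, Ccl8, Ccl25, Ccl26, Ccl28, Cx3cl1, Chil3, Fn1, Ly6g and Mmp8. A planned description of the proteins was not made, for want of their sequences here. No 2 arrays held identical values. Alternatives covered the filter, normalization, weights, thresholds, replicate number and single arrays.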

Additional observations from a re-analysis of the deposited data

Results flagged for a closer look

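Single arrays stood apart from the other 3 of their group by Dixon's criterion in 2 of 44 groups of 4 arrays examined (10 members and Ccr1), where chance gives about 1 in 20. Ccl9 was at 11.01 on array 2 of LPS-treated S534A, below the other 3 of that group. Ccl22 was at 5.49 on array 3 of LPS-treated S534A, below the other 3.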

How the results depend on the processing

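Counts of called members were taken over 28 alternatives for each comparison of 2 groups and 27 for the interaction. All 139 stayed within 1.5 times their value: 6 to 9 for LPS in S534A, 6 to 8 for LPS in WT, and 0 in the genotype and interaction comparisons. Leaving out each array in turn gave 8 to 9 in S534A, 8 to 8 in WT and 0 in the others. Correlations of same-numbered arrays were mixed (-0.492 to 0.588, with 1 or 2 of 4 pairs over 0.1 in each comparison, and 2 or 4 of 8 arrays nearest to their own number), so the numbers were not taken to pair samples; with the replicate block 8 members were called for LPS in S534A, 8 in WT and 0 in the others. Several settings could not move a member's difference between groups. These were leaving out arrays of a group not compared, averaging a gene's probe sets, stricter thresholds and the permutation test. The other filters, a trend in eBayes, the replicate block and the fit of 2 groups alone also left the differences as they were. Some of these settings could still move the p-value. Counting these, 1265 of 1277 single changes over 29 alternatives kept their side of the threshold. The totals are thus padded by settings that left the difference fixed. The sign turned in 51, all of them changes not called as reported, and in 0 of the 460 that were called. Those that crossed the threshold, beside the ones given above, were Ccl9 in S534A, which passed with array weights (0.26, limma adjusted p = 0.0185) and in a fit of its 2 groups alone (0.25, 0.047), and Ccl24 in S534A, lost at a threshold of 0.01. A minimum of 1.5-fold removed Ccl24 in both genotypes and Ccl22 in S534A, and a filter at the array median removed Ccl22 and Ccl24. Centring each array on its median lowered the members' LPS changes by 0.10 and the median over all genes to -0.13 in S534A and -0.16 in WT, with 1703 genes higher and 6231 lower in S534A and 1838 higher and 6493 lower in WT, beside 2258 and 4967 in S534A and 2377 and 4762 in WT as deposited. Array weights called 370 genes between the untreated genotypes, beside 2, and 3 genes in the interaction, beside 0. A minimum of 1.5-fold left 3286 genes in S534A and 3158 in WT. The causes were not tested. Each member had 1 probe set, so no further probe set could be tried.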
